A study of Homo sapiens with 10 samples.

Results

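The genes KRT5, KRT7, KRT8, KRT14, KRT15, KRT17, KRT18 and KRT19, which encode keratins of the luminal and basal layers of glandular epithelium, were read together with VIM and NES, which encode vimentin and nestin. They were chosen by symbol and not by their values, although earlier results of these data were known. They are 10 of the 62656 genes of the deposited table. The libraries came from PC3, a human cell line derived from a bone metastasis of prostate cancer, which the sample labels call epithelial. The cells were starved overnight and then kept for 24 h in RPMI-1640 with glutamine and either the vehicle DMSO or 1 µM of GW3965, a synthetic agonist of the liver X receptors (LXRs), with 5 libraries per condition. Nothing in the labels says whether the 5 libraries came from separate cultures, so the p-values measure the spread between these libraries, which may be technical. All libraries are from 1 cell line and 1 time point.

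Intermediate filaments are the rope-like part of the cytoskeleton, and each cell type builds them from its own set of proteins. Keratins assemble only as pairs of a type I chain (KRT14, KRT15, KRT17, KRT18 and KRT19) with a type II chain (KRT5, KRT7 and KRT8), whereas vimentin can polymerise alone and nestin needs vimentin or a related partner. In the prostate, luminal cells are known for KRT8 and KRT18, basal cells for KRT5 and KRT14, and a gain of vimentin beside or in place of keratins is a classical mark of the epithelial-mesenchymal transition.

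The question was which of these filament genes PC3 cells use and whether GW3965 changes them. Values are RPKM, that is, reads divided by gene length in kilobases and by a factor of the library, and the reads behind them were recovered from the steps between the values. The libraries held between 30473715 and 41693083 reads. Along the first principal component of the recovered reads, which took up 48.3% of the variance of the 500 most variable genes, DMSO library 1 and GW3965 libraries 1 and 2 lay apart, with scores of -8.04 or lower against -2.59 or higher in the other libraries. The LXR target genes ABCA1, ABCG1, SREBF1 and MYLIP all rose (4 of 4 by limma, log2 fold changes from 0.74 to 2.29). KLK3, which encodes prostate-specific antigen, was at 0 in all libraries.

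PC3 cells carried the keratins grouped here as luminal (KRT7, KRT8, KRT18 and KRT19) together with vimentin and nestin, and almost no basal keratin. KRT19, a type I keratin of simple epithelia, was the highest of the 10 genes with a mean of 149 RPKM over the 10 libraries. VIM followed with 69.5 RPKM, then the type I keratin KRT18 with 49.6, its type II partner KRT8 with 36.6, the type II keratin KRT7 of ductal epithelia with 30.7, NES with 16.4 and KRT15 with 4.29. KRT14 and KRT17 held a few reads and KRT5 none. Every neighbour in this order was separated in 10 of 10 libraries, except that KRT8 was above KRT7 in 7 of 10 libraries and that KRT14, KRT17 and KRT5 could not be ordered. This order is per kilobase and depends on the authors' gene lengths, which were 2336 bases for KRT19 and 5176 bases for VIM. In reads summed over the 5 libraries of a condition, VIM was above KRT19. The sums were 60471 against 58268 with DMSO and 68138 against 65873 with GW3965. The places of KRT18 and KRT8 hold for the genes alone. With the reads of their pseudogenes added, divided by the same gene length, KRT18 came to 121 RPKM, above VIM in 10 of 10 libraries, and KRT8 to 72.9 RPKM, above VIM in 7 of 10.

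Of the summed RPKM of the 10 genes in a library, which lay between 295 and 394, the luminal keratins KRT7, KRT8, KRT18 and KRT19 made up 74.6% ± 1.44 (SD, n = 10). VIM and NES made up 24.2% ± 1.36, and the basal group of KRT5, KRT14, KRT15 and KRT17 made up 1.24% ± 0.197, nearly all of it KRT15. VIM alone took 19.6% ± 1.24. The ratio of KRT8 to KRT18 stayed between 0.689 and 0.777, whereas the share of KRT7 ran from 6.12 to 13.3% over the libraries. KRT19 took from 39.4 to 41.5% of the sum in the DMSO libraries and from 42.0 to 44.2% in the GW3965 libraries. The conditions did not overlap in this share, but they did in the share of every other member and in the RPKM of KRT19. No rate over other genes is given for such shares. The share of KRT19 also moves when another member does, and that of KRT7 was 9.92% ± 2.75 with DMSO and 7.18% ± 1.41 with GW3965 (SD, n = 5). The shares are of values per kilobase and so depend on the authors' gene lengths as well. No test was run on the shares.

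No member passed the test between GW3965 and DMSO. Of the 10 genes, 7 reached a mean of 0.5 RPKM over the libraries and entered the fit of all 20402 such genes by limma on log2(RPKM + 0.1). The adjusted p was under 0.05 for 0 of 7, against 0.157% of all tested genes. In this fit the unadjusted p was under 0.05 for 0 of 7, against 6.99% of all tested genes. By adjusted p, limma's voom on the recovered reads also called 0. The conditions overlapped for all 7, while 1.84% of all tested genes had conditions that did not overlap. In total RNA of a culture, fewer cells that make a transcript and less of it per cell cannot be told apart.

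Vimentin (VIM, chr10:17228259-17237593 on the plus strand of GRCh38) had 59.9, 63.1, 66.2, 76.8 and 62.1 RPKM in DMSO libraries 1 to 5 and 68.5, 67.8, 77.0, 78.8 and 74.6 RPKM in GW3965 libraries 1 to 5. All 5 GW3965 values lay above 4 of the DMSO values, and 2 of them above DMSO library 4 as well. The log2 fold change was 0.16 (SE 0.08, 95% interval -0.0042 to 0.33), or 1.12-fold, with an unadjusted p of 0.055 and an adjusted p of 0.725 by limma. Behind each value stood at least 10367 reads, so that the counting error was small beside the spread between libraries. VIM overlaps the antisense genes VIM-AS1 and AL133415.1 on the opposite strand, and 20.7% of the 50-base windows of its transcripts, counted on either strand, occur in other genes. VIM-AS1 was at 0.174 to 0.637 RPKM and AL133415.1 at 0.134 RPKM or less.

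KRT19 (chr17:41523617-41528308, minus strand) had 123, 145, 152, 151 and 130.3 RPKM with DMSO and 141, 142, 167, 163 and 174 RPKM with GW3965. There were 3 GW3965 libraries above all DMSO libraries, and the other 2 lay within the DMSO range. The log2 fold change was 0.17 (SE 0.09, 95% interval -0.02 to 0.35), with an unadjusted p of 0.075 and an adjusted p of 0.76 by limma. The call changed in 1 setting, chosen after the data were seen. With the first principal component as a covariate, KRT19 was higher with GW3965 by a log2 fold change of 0.20 (SE 0.04, adjusted p = 0.0376 by limma), and VIM had 0.19 with an adjusted p of 0.0721. In that setting 0.76% of all tested genes were called. KRT19 shares only 0.977% of its 50-base windows with another gene, its pseudogene KRT19P1.

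KRT18 (chr12:52948871-52952901, plus strand) had 42.7, 46.8, 50.7, 58.5 and 50.2 RPKM with DMSO and 42.9, 44.1, 53.1, 57.7 and 49.8 RPKM with GW3965. KRT8 (chr12:52897187-52949954, minus strand) had 29.8, 36.3, 38.7, 41.4 and 38.1 RPKM with DMSO and 32.2, 33.0, 39.8, 39.7 and 36.5 RPKM with GW3965. For both partners the same 3 libraries were lowest, DMSO library 1 and GW3965 libraries 1 and 2, which are those set apart on the first component. The log2 fold change was -0.01 (SE 0.10, 95% interval -0.23 to 0.21) for KRT18 and -0.02 (SE 0.10, 95% interval -0.23 to 0.19) for KRT8, with adjusted p of 0.993 and 0.988 by limma. As folds, the intervals run from 0.851 to 1.16 for KRT18 and from 0.852 to 1.14 for KRT8.

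The partners rose and fell together from library to library. Over the 10 libraries, Pearson's r of log2(RPKM + 0.1) between KRT8 and KRT18 was 0.93 (permutation test, adjusted p = 0.00015 over 3 pairs) and Spearman's rho was 0.99 (permutation test, adjusted p = 3e-05, from the smallest p the resamples can give). Without the 2 libraries farthest from the median of KRT8, r was 0.93, and in the 7 libraries that did not stand apart it was 0.91. Such a correlation was not particular to the partners. Among genes whose mean reached 10 RPKM, KRT18 had a higher r with NES (0.99), UBAP2L (0.98) and its pseudogene KRT18P11 (0.98). VIM and NES gave an r of 0.69 (permutation test, adjusted p = 0.043) and a rho of 0.64 (permutation test, adjusted p = 0.0829), and r was 0.54 without the 2 libraries farthest from the median of VIM. KRT7 and KRT19 gave an r of 0.38 (permutation test, adjusted p = 0.279) and a rho of 0.42 (permutation test, adjusted p = 0.231). After removal of the condition means, r was 0.83 for KRT7 and KRT19 (permutation test, adjusted p = 0.00438) and 0.95 for VIM and NES (permutation test, adjusted p = 7.5e-05). In the 7 libraries that did not stand apart, r for KRT7 and KRT19 was -0.11, and 0.58 after removal of the condition means. For VIM and NES these values were 0.71 and 0.92. The pair of KRT5 and KRT14 gave no value, as KRT5 was at 0.

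The level order of KRT8 and KRT18 depends on the length by which the reads are divided. The authors' gene length, as recovered from the values, was 6881 bases for KRT8 and 3069 bases for KRT18. In reads, KRT8 was above KRT18 in 10 of 10 libraries, by 1.55 to 1.74 times, whereas per kilobase it was below in all of them. The annotated genes also overlap on opposite strands. The library kit marks the strand, and the strand setting of the counting is not given in the sources used here.

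Many processed copies of both genes lie elsewhere in the genome and were assigned many reads. GENCODE 29 windows of 50 bases, the length of the reads, were compared between all annotated transcripts on either strand. In all, 16.1% of the KRT8 windows and 24.5% of the KRT18 windows occur in another gene. These shares do not count the processed copies alone. Among other genes, KRT8 held the most windows of KRT18 and KRT18 the most of KRT8, and the genes overlap on opposite strands. The window of the coding exons of KRT18 that is held by the most other genes is shown here to make the sharing visible. It is given 5′ to 3′ along the gene, at chr12:52949383-52949432 (plus strand) in GRCh38. A read with this sequence cannot be placed in 1 gene, and no base is set in capitals because the whole run is shared.
KRT18: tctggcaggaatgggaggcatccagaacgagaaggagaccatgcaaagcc
The KRT18 run occurs in 6 other genes, of which 5 are KRT18 pseudogenes and 1 is the overlapping KRT8.

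The table lists 50 numbered pseudogenes of KRT8, of which 47 had reads, and 67 of KRT18, of which 63 had reads. Together they held 49.9% of the reads of KRT8 and its copies (48.9 to 50.5% in single libraries) and 58.9% of those of KRT18 and its copies (58.1 to 60.0%). For KRT19 and its 5 pseudogenes the share was 4.37%. The highest pseudogenes were KRT8P3 with 34.3 RPKM, close to the 36.6 RPKM of KRT8, and KRT18P10 with 31.5 RPKM and KRT18P11 with 26.3 RPKM, both below the 49.6 RPKM of KRT18. How the counting treated reads that fit several genes is not given in the sources used here, so the levels of KRT8 and KRT18 are uncertain. Their comparison between conditions hardly moved. With the reads of the copies added, the log2 ratio of GW3965 to DMSO was -0.03 for KRT8, -0.03 for KRT18 and 0.17 for KRT19. Of the 136 keratin pseudogenes in the table, 64 were tested and 0 were called by limma, 26 of them being higher with GW3965.

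Nestin (NES, chr1:156668763-156677397, minus strand), known from neural progenitors, had 14.7, 15.8, 16.6, 19.2 and 16.7 RPKM with DMSO and 14.7, 15.0, 17.5, 17.8 and 16.4 RPKM with GW3965. The lowest values were again in DMSO library 1 and GW3965 libraries 1 and 2. Its log2 fold change was -0.02 (SE 0.08, 95% interval -0.20 to 0.16, adjusted p = 0.983 by limma). None of its 50-base windows occurs in another gene.

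KRT7 (chr12:52232520-52252186, plus strand) was the most variable of the tested members. It had 21.1, 47.5, 46.7, 30.8 and 28.8 RPKM with DMSO and 19.8, 21.1, 25.8, 27.2 and 38.0 RPKM with GW3965. Both conditions held libraries near 20 RPKM, and the 2 highest values were those of DMSO libraries 2 and 3. The highest library was 2.39 times the lowest, and the within-condition coefficient of variation was 31.6%, against 8.45 to 12.1% for the other tested members. The median was 9.41% over the 4348 tested genes whose mean reached 10 RPKM, and 16.6% was their 90th percentile. The log2 fold change was -0.38 (SE 0.24, 95% interval -0.90 to 0.15, adjusted p = 0.833 by limma). A 0.535-fold to a 1.11-fold level with GW3965 lies within that interval. The value was -0.25 without DMSO library 2 and -0.54 without DMSO library 1. KRT7 overlaps the antisense gene KRT7-AS, which had 0.936 to 3.04 RPKM and with which most of its shared windows (5.70% in all) are held in common. KRT7 also overlaps KRT86 on the same strand and KRT87P on the opposite strand. KRT7-AS had a log2 fold change of -0.53 (SE 0.29, adjusted p = 0.784 by limma).

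Of the basal keratins, KRT15 (chr17:41513743-41522529, minus strand), a type I chain of basal and progenitor cells, was the one with a clear level. It had 4.45, 3.90, 4.70, 4.12 and 4.20 RPKM with DMSO and 4.43, 4.89, 3.73, 4.03 and 4.48 RPKM with GW3965. The ranges lay on top of each other, and the log2 fold change was 0.01 (SE 0.08, 95% interval -0.17 to 0.19, adjusted p = 0.993 by limma). Its 3 lowest values were in GW3965 libraries 3 and 4 and DMSO library 2.

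KRT14 (chr17:41582279-41586921, minus strand), the type I chain of basal cells, had 5, 1, 1, 0 and 3 reads with DMSO and 6, 4, 2, 4 and 4 reads with GW3965. The 10 against 20 reads gave an exact permutation p of 0.151 for the mean RPKM (adjusted p = 0.286 over 2 genes, two-sided exact permutation test). KRT17 (chr17:41619441-41624842, minus strand), a type I chain of basal and wounded epithelium, had 2 reads with DMSO, all in library 4, and 10 with GW3965, of which 7 were in library 2 (exact permutation p = 0.286, adjusted p = 0.286). Reads of copies cannot be told apart from these everywhere, since 16.8% of the KRT14 windows and 9.02% of the KRT17 windows occur in other genes. KRT5 (chr12:52514575-52520687, minus strand), the type II partner of KRT14, had 0 reads in 10 of 10 libraries. With the GENCODE 29 gene length of 4292 bases, a count of 0 allows up to 0.0165 to 0.0231 RPKM depending on the library, a limit that covers counting error only. TP63, the transcription factor that marks basal cells, was at 0.0353 RPKM.

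**Figure D1:**
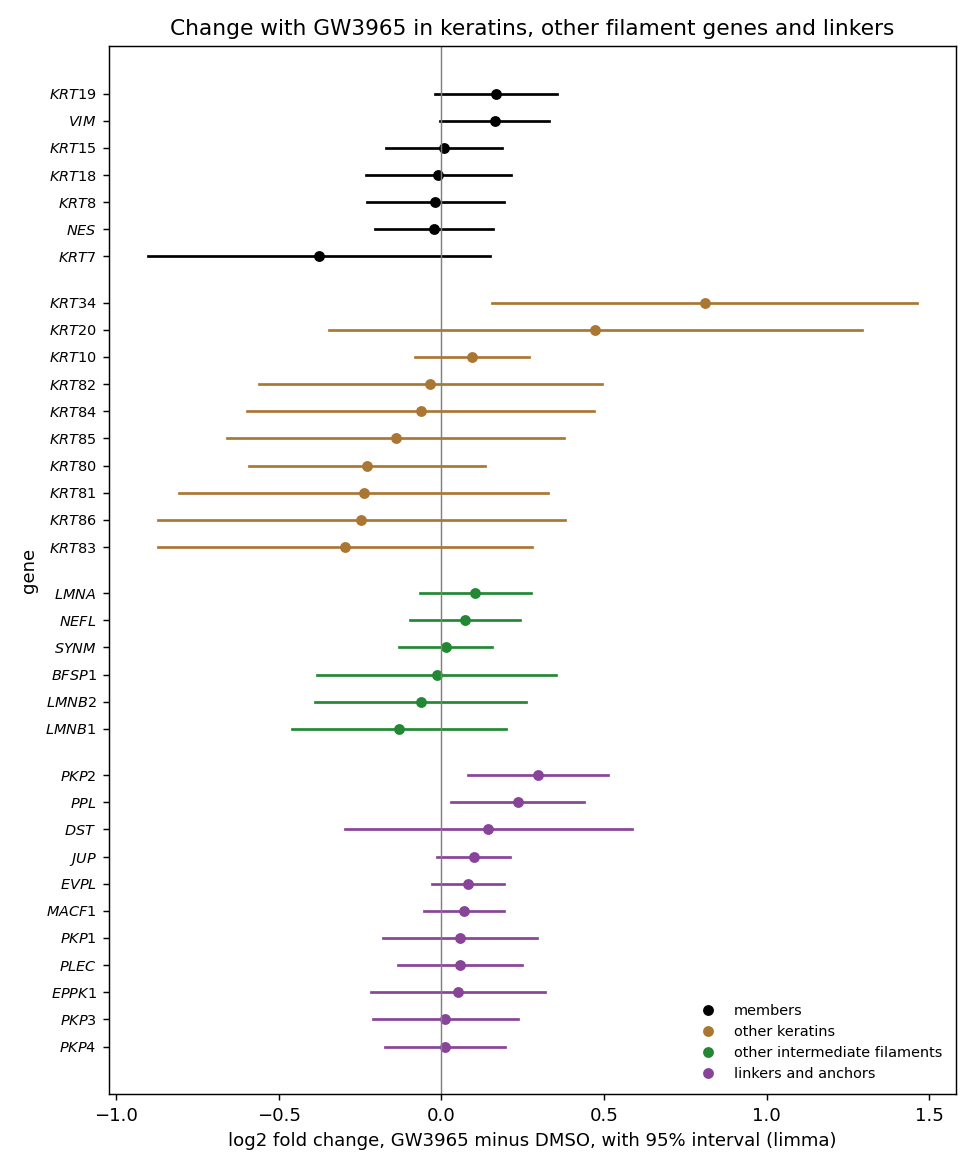
Log2 fold change of GW3965 minus DMSO by limma (horizontal axis, points) with 95% intervals (lines), for the 7 tested members, 10 other keratins, 6 other intermediate filament genes and 11 linkers. The interval of every member includes 0, and all 11 linkers have a point above 0.

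The other keratins of the table were counted to see whether the members stand for the family. Of 47 such genes 12 were at 0 in all libraries and 10 were tested, of which 3 were higher and 7 lower with GW3965 and 0 were called. Of all 20402 tested genes, 10420 were higher and 0.157% were called. At an unadjusted p under 0.05 by limma there was 1, against 6.99% of all tested genes, and the median log2 fold change was -0.10, against 0.003 for all tested genes. The highest keratin of the cells was none of the members but KRT81, a type II keratin of hair, with 469.8 RPKM. KRT86, another hair keratin, had 41.2 RPKM, but 43.7% of the KRT81 windows and 37.5% of the KRT86 windows occur in other genes, most of them in each other. The type I hair keratin KRT34 had the highest log2 fold change of 0.81 (SE 0.30, unadjusted p = 0.0197, adjusted p = 0.563 by limma), from 0.691 to 1.27 RPKM. Only 1 GW3965 library, library 5 with 2.25 RPKM, lay above all DMSO libraries. The medians were 0.510 RPKM with DMSO and 1.04 RPKM with GW3965, on 24 to 119 reads per library. The lowest log2 fold change was that of KRT83, with -0.30 (SE 0.26).

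Along chromosome 12, where all type II keratin genes and KRT18 lie between 52168996 and 52952901, the levels fell into blocks. The first 8 genes, from KRT80 and KRT7 through KRT86, KRT81, KRT83, KRT85 and KRT84 to KRT82, had means between 2.38 and 469.8 RPKM. The next 17 genes, among them KRT5, had means of at most 0.172 RPKM and 8 of them had 0 reads. KRT8 and KRT18 close the row at the far end.

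**Figure D2:**
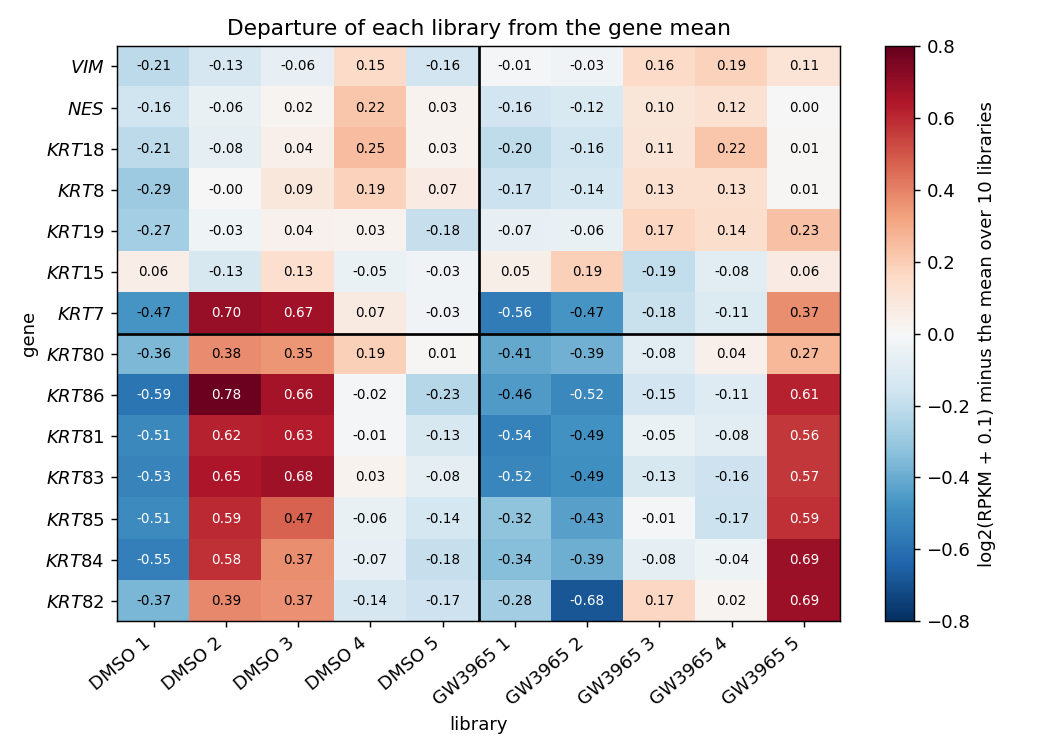
Log2(RPKM + 0.1) of each library minus the mean of the gene over the 10 libraries (colour and printed value), for the 7 tested members (above the line) and the 7 other tested keratin genes next to KRT7 on chromosome 12 (below it); columns are libraries. KRT7 and the 7 genes below it share high values in DMSO libraries 2 and 3 and in GW3965 library 5, while KRT8, KRT18 and NES are highest in DMSO library 4.

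Of 13 other intermediate filament genes, 6 were tested, 3 of them higher and 3 lower with GW3965, and 0 were called by limma, with 0 at an unadjusted p under 0.05. NEFL, the light neurofilament chain, had 38.0 RPKM and LMNA, which encodes lamins A and C of the nuclear lamina, had 36.3 RPKM. LMNA had the highest log2 fold change of the list with 0.10 (SE 0.08), and LMNB1, which encodes lamin B1, the lowest with -0.13 (SE 0.15). Desmin, peripherin, glial fibrillary acidic protein and the other filament genes that were not tested had means of at most 0.155 RPKM. The median of the list was -0.001.

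The linkers that tie filaments to desmosomes and to other parts of the cytoskeleton were all slightly higher with GW3965 and did not pass the test. Of 12 genes 11 were tested, the log2 fold change was above 0 in 11 of 11, against 10420 of all 20402 tested genes, its median was 0.07, and 0 were called, against 0.157% of all tested genes. At an unadjusted p under 0.05 by limma, which 6.99% of all tested genes reached, there were 2, PPL, which encodes periplakin, with 0.23 (SE 0.09, adjusted p = 0.61), and PKP2, which encodes plakophilin 2, with 0.30 (SE 0.10, adjusted p = 0.482). PLEC, which encodes plectin, a crosslinker of vimentin and keratin filaments, was the highest with 104 RPKM and a log2 fold change of 0.06 (SE 0.09), followed by PKP1 with 37.2 RPKM and 0.06 (SE 0.11). The lowest was PKP4 with 0.01 (SE 0.08). The 1 untested linker was DSP, which encodes desmoplakin, the protein that fastens keratins to desmosomes, at 0.0526 RPKM.

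Of 5 genes of filament organisation and turnover, all tested, 3 were higher and 0 were called by limma, with 0 at an unadjusted p under 0.05 and a median of 0.01. FAM83H, a scaffold that organises keratin filaments, had 14.7 RPKM. PNN, which encodes pinin, had 13.5 RPKM and the highest log2 fold change of 0.21 (SE 0.10, adjusted p = 0.734 by limma), and TCHP, which encodes trichoplein, the lowest with -0.02 (SE 0.09).

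Against the label of an epithelial line, most of the other epithelial markers were low. ESRP2, a splicing factor of epithelial cells, had 4.73 RPKM and EPCAM, an epithelial adhesion molecule, 1.73 RPKM, with log2 fold changes of -0.09 (SE 0.09) and 0.27 (SE 0.14) and no call in the list. CLDN7 and CDH1, which encode claudin 7 and E-cadherin, were at 0.293 and 0.285 RPKM, ESRP1 at 0.0254 RPKM, and GRHL2 was lower still. Of 10 markers of fibroblasts, endothelium and leukocytes 3 were tested, COL3A1 with 3.47 RPKM, COL1A1 with 0.928 RPKM and PECAM1 with 0.604 RPKM, and 0 were called by limma. The fibroblast marker PDGFRA was at 0.16 RPKM and the leukocyte marker PTPRC at 0.0164 RPKM.

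Among genes whose mean reached 10 RPKM, the pattern most like that of VIM over the 10 libraries was that of ANXA5, with a Pearson r of 0.98, followed by CALR and ADH5, both also with 0.98. For KRT18 it was NES with 0.99, then UBAP2L and the pseudogene KRT18P11 with 0.98 each. These are the highest of 4348 genes compared and are given without a test. KRT18 and NES had their 3 lowest values in the same libraries.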

How the data were processed

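Libraries of total RNA depleted of ribosomal RNA were made with a stranded kit, per the labels, which also name polyA RNA. The authors sequenced single reads of 50 bases, aligned them with HISAT2 (2.1.0 in the submitters' processing notes), counted them per gene (the notes name HTSeq 0.11.2) and deposited RPKM values, 1 column per library. The notes give hg38 and the methods name a mouse build, but the gene identifiers in the table are all human ones. No annotation release is given in the sources used here.

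Whole reads were recovered from the RPKM steps for 100% of the genes above 0. The deposited values were already scaled by median-of-ratios size factors. Lengths, positions and shared windows came from GENCODE 29 (GRCh38).

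log2(RPKM + 0.1) was tested with limma 3.58.1 in R 4.3.3 (lmFit, eBayes with trend) for every gene whose mean reached 0.5 RPKM, 20402 in all. The test was two-sided, p-values were adjusted over all of these genes by the Benjamini-Hochberg method, and the threshold was 0.05. This scale understates changes of low genes. Members under the minimum were compared by an exact permutation test over 252 labellings. Correlations used 100000 permutations. On simulated data with 20403 tested genes, 26 of 68 genes changed by a log2 of 0.5 were recovered, 48 of 68 at 1 and 50 of 52 at 2, and 5 of 129 called genes were unchanged ones.

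The members, the gene lists and the tests were chosen with earlier results of these data known. Named genes are the members, in each list those past the threshold, the 2 highest by mean and the highest and lowest fold change, the 3 highest keratin pseudogenes and antisense genes, and the 3 genes most like VIM and KRT18. Some items that this covers are not reported here. Other named genes (the untested markers, the remaining keratins of chromosome 12, PPL and PECAM1) were chosen after their values were seen. Alternatives were other pseudocounts (1 and 0.01), other minimums, other scalings, the replicate number as a block, no trend, library weights, voom and the loss of each library. The first principal component as a covariate, the correlations of KRT7 and the sums with pseudogenes were added after the data were seen. Libraries with the same number did not deviate together (correlations of -0.138 to 0.16), so the numbers were not used as pairs. Some members did follow the number. With it as a block, the SE fell from 0.101 to 0.0436 for KRT18 and from 0.0959 to 0.0519 for KRT8. It fell from 0.082 to 0.0473 for NES and from 0.0761 to 0.0507 for VIM. It fell less for KRT19 (0.085 to 0.0695) and KRT7 (0.239 to 0.217) and rose for KRT15 (0.0814 to 0.0933). No member was called in that setting. No pair of libraries was near-identical (chi-square per degree of freedom of at least 6.81).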

Additional observations from a re-analysis of the deposited data

How the results depend on the processing

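The members stayed without a call in 20 of 21 alternatives. Among these, median-of-ratios scaling could change no call, as the deposited values were already scaled in this way. With the first principal component as covariate, an alternative added after the values were seen, 1 member was called, KRT19, at a log2 value of 0.204. Of all tested genes, 32 were called, against 21 without a filter on low values, 20 without a trend, 56 with library weights, 63 by voom and 155 with the component. Leaving out single libraries gave 17 to 38, with the largest losses for GW3965 libraries 2 and 4 (17 each), DMSO library 3 (18) and GW3965 libraries 3 (19) and 5 (21). With the replicate number as a block, 16 genes and 2 of the 4 LXR target genes were called, and it changed no other call in the lists. Only for 1 of 5 numbers was the same-numbered library the best match, as a hint from the data. The sign of 4 log2 fold changes near 0 turned. KRT8 had 0.0236 with weights and 0.0197 with the component, KRT18 0.0633 and 0.033, NES 0.036 and 0.00972, and KRT15 -0.0201 and -0.00774, and -0.00522 after quantile normalization. Without single libraries, KRT8 lay between -0.0938 and 0.0246, KRT18 between -0.0664 and 0.0511, NES between -0.065 and 0.0305, KRT7 between -0.542 and -0.251 and KRT15 between -0.0373 and 0.0582. The correlation of KRT7 and KRT19 was 0.83 after removal of the condition means. The causes were not tested. KRT7 kept its negative and VIM and KRT19 their positive sign in all 21 alternatives. After quantile normalization, KRT19 had 0.177 (SE 0.035, adjusted p = 0.104 by limma) and VIM 0.140 (SE 0.039, adjusted p = 0.28 by limma). With library weights, KRT19 had 0.197 (SE 0.076, adjusted p = 0.402 by limma) and VIM 0.218 (SE 0.062, adjusted p = 0.235 by limma). Depth limits KRT5, KRT14 and KRT17.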

Other observations

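The spread of KRT7 was shared with its neighbours on chromosome 12, a pattern that was chosen after the values were seen. KRT81 had 314, 687, 694, 445 and 411 RPKM in DMSO libraries 1 to 5 and 309, 319.8, 433, 423 and 663 RPKM in GW3965 libraries 1 to 5. As for KRT7, DMSO libraries 2 and 3 were highest and DMSO library 1 and GW3965 libraries 1 and 2 lowest, and GW3965 library 5 was the highest of its condition. Of 16 genes compared with KRT7 over the 10 libraries, 8 had an adjusted p under 0.05. Pearson's r was 0.99 for KRT83 (permutation test, adjusted p = 0.00016) with a Spearman's rho of 0.94 (permutation test, adjusted p = 0.00107). It was 0.98 for KRT81, 0.97 for KRT86, 0.96 for KRT80, 0.94 for KRT85, 0.91 for KRT84 and 0.82 for KRT82 (permutation tests, adjusted p of 0.00754 or lower). Without DMSO libraries 2 and 3, r for these genes was 0.82 to 0.98, and in the 7 libraries that did not stand apart on the first component it was 0.66 to 0.97. The pattern was not limited to this region. KRT34, which is not among the chromosome 12 keratins, had an r of 0.33 with KRT7 (permutation test, adjusted p = 0.405). After removal of the condition means its r was 0.90, against 0.89 for KRT82 and 0.99 for KRT81. How many genes outside the keratins follow KRT7 as closely is not given. KRT80, an epithelial keratin, shares 0.364% of its 50-base windows with other genes, whereas KRT81 and KRT86 share many with each other. KRT83 shares 12.8% and KRT85 7.90% of their windows with other genes, and KRT86 overlaps KRT7 on the same strand.

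KRT20, a type I keratin of intestinal and urothelial cells on chromosome 17, ran the other way. It had 3.56, 0.826, 1.26, 1.55 and 1.89 RPKM with DMSO and 3.06, 3.54, 2.55, 2.04 and 1.10 RPKM with GW3965. Its highest values were in the 3 libraries in which KRT7 was lowest. Its r with KRT7 was -0.96 (permutation test, adjusted p = 0.000192) and its rho -0.94 (permutation test, adjusted p = 0.00107), and r was -0.97 without DMSO libraries 2 and 3 and -0.92 in the 7 other libraries.

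None of the 6 other tested members passed the threshold in this comparison with KRT7, although KRT19 did after removal of the condition means (r of 0.83, permutation test, adjusted p = 0.00438 over 3 pairs). For KRT8, r was 0.53 (permutation test, adjusted p = 0.206) and for KRT18 0.35 (permutation test, adjusted p = 0.405). In the 7 libraries that did not stand apart, r was -0.63 for KRT8 and -0.67 for KRT18, so that the sign of these values rests on the 3 libraries. For VIM, r was -0.02 (permutation test, adjusted p = 0.967).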
